A study of Mus musculus with 6 samples.

Results

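Mitochondrial ribosomal protein genes are the nuclear genes whose products form the ribosome inside mitochondria, chosen here as every gene in the deposited count table whose name is Mrpl or Mrps followed by a number and at most 1 letter. There were 78 such genes among the 57180 of the table, and all 78 passed the filter on low counts, among 13260 genes tested. RNA was sequenced from bone marrow-derived macrophages of wild-type mice aged 6 to 8 weeks, made by culturing marrow in M-CSF at 20 ng/mL for 7 days. One group was treated for 24 h with the neuropeptide CGRP together with IL-4, and the other with IL-4 alone, with 3 libraries in each group. The dose of IL-4 was 20 ng/mL in both groups. IL-4 is a cytokine that drives alternative activation of macrophages, and CGRP is released by sensory nerves. Every culture received M-CSF and IL-4, so the comparison asks what CGRP adds in cells that already have IL-4. The labels do not say whether the replicates are different mice or cultures, and the spread behind every p-value may therefore be technical.

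The mitochondrial ribosome translates the few messenger RNAs encoded by mitochondrial DNA, all of which specify membrane subunits of the respiratory chain and ATP synthase. Its ribosomal RNAs are made inside the organelle, while all of its proteins are encoded in the nucleus, made in the cytosol and imported. Compared with its bacterial relative the mammalian mitoribosome has less RNA and many added proteins, and macrophages given IL-4 are known to raise oxidative metabolism. Of the 78 genes, 51 encode large subunit proteins, including Mrps18a and Mrps30, whose names come from the small subunit. Another 26 encode small subunit proteins, and Mrps36 is now assigned to the 2-oxoglutarate dehydrogenase complex. By textbook assignment 48 have a bacterial homologue and 29 are specific to mitochondria.

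The genes lie on 17 chromosomes, and the sequence around their start sites is where transcription factors known to act on many of them bind. RefSeq promoter windows of build GRCm38.p6, from 250 bases before to 50 bases after each annotated start, were matched by symbol for 69 of the 78. The 5 windows below are shown because 4 belong to the members called lower in each of 4 fits without IL-4+CGRP replicate 2, described further on, and the last, of Mrpl44, belongs to the gene with the smallest p and holds the motif of NRF1, a factor known to act on nuclear genes for mitochondrial proteins. Each line gives the 250 bases before the start and the first 20 bases after it, on the plus strand, 5′ to 3′. Capitals mark a match to the ETS-type motif CCGGAAG, read by factors such as GABP, or to the NRF1-type motif, which is GCGCA, any base and then GCGC, on either strand.
Mrps18c (chr5:100798509-100798778): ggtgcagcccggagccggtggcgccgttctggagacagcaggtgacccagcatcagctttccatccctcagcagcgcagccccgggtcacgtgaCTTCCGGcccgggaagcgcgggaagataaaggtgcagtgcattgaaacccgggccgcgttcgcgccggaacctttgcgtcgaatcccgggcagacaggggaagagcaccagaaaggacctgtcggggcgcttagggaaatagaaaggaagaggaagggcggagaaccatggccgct
Mrpl51 (chr6:125191950-125192219): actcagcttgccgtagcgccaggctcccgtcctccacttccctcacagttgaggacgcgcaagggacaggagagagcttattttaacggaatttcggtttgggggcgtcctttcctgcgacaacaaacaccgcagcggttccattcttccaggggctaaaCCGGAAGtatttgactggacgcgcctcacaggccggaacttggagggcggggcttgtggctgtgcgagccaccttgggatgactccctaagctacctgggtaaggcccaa
Mrps17 (chr5:129715247-129715516): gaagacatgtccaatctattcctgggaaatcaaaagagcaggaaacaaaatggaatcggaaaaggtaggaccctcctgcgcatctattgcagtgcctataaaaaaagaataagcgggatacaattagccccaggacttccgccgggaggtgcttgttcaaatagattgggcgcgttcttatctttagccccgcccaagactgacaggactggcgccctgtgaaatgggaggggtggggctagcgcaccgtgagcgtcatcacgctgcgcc
Mrps14 (chr1:160194965-160195234): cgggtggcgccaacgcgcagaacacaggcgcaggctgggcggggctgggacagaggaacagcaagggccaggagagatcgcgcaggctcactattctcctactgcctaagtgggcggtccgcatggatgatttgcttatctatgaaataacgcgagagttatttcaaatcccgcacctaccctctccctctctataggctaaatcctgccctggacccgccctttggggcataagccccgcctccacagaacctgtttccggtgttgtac
Mrpl44 (chr1:79775768-79776037): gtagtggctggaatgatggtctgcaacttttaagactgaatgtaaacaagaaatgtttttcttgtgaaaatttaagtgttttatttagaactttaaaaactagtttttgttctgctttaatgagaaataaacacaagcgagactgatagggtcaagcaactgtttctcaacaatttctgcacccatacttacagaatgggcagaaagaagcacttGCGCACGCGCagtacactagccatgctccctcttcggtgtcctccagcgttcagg

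The ETS-type match began 156 bases before the start in Mrps18c, in antisense, and 90 bases before it in Mrpl51, in sense. The NRF1-type match of Mrpl44 began 35 bases before the start. The windows of Mrps17 and Mrps14 held neither motif, which says only that these letters are not there. The ETS-type motif was in 26 of the 69 genes (37.7%), against 9.93% of 27025 genes with a window and 20.8% of the 9701 of them that were tested. The NRF1-type motif was in 13 (18.8%), against 5.19% of all genes and 11.5% of tested genes. The YY1-type motif AAGATGGCG was in 8 (11.6%), against 1.64% and 3.69%. At least 1 of these 3 motifs was in 41 of the 69 (59.4%), against 15.1% of all genes and 32.1% of tested genes. The cyclic AMP response element TGACGTCA, bound by CREB downstream of receptors that raise cyclic AMP, was in 2 (2.90%), Mrpl16 and Mrpl49, against 2.03% and 3.51%. All motifs were searched on both strands. Matches of different motifs may overlap. Members with and without any of the first 3 motifs had median log2 fold changes of -0.09 and -0.07. In 24 of the 69 (34.8%) the window overlapped that of a gene on the opposite strand, against 11.9% of all genes and 19.2% of tested genes. Mrpl46 and Mrps11 share such a window with each other, Mrps12 shares one with Sars2 (the mitochondrial seryl-tRNA synthetase) and Mrpl43 with Twnk (the mitochondrial DNA helicase). None of the neighbours that were tested passed the test, against 3.85% of all tested genes.

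Expression of the genes was spread over a 24.9-fold range when counts were divided by gene length and scaled to a common sum per library (TPM), around a median of 30.1 TPM. That median exceeded the level of 64.9% of tested genes. The highest were Mrps21 at 110.2 TPM, Mrpl42 at 106 TPM and Mrpl27 at 91.1 TPM. Mrps21 and Mrpl27 are homologues of bacterial proteins, and Mrpl42 is specific to mitochondria. The lowest were Mrps35 at 4.43 TPM, Mrpl47 at 7.44 TPM and Mrpl57 at 7.63 TPM. These levels rest on the deposited length, which equals the longest coding transcript of GENCODE M21 for 68 of the 78 genes. For 20 genes, among them Mrps35, Mrps17, Mrps14 and Mrpl17, a coding transcript of under 50% of that length is annotated, so their levels per length may be understated.

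No member passed the test in either direction. In the edgeR quasi-likelihood fit across all tested genes, 0 of 78 were called higher and 0 lower at an adjusted p under 0.05, against 3.85% of all tested genes (2.32% higher and 1.54% lower). The smallest adjusted p among members was 0.212, DESeq2 also called 0 (smallest adjusted p 0.344), and so did limma-voom (0.231). At an unadjusted p under 0.05 there were 5 members, which is 6.41% of them, against 15.8% of all tested genes. The 95% confidence interval of the fold change lay within 1.5-fold either way for 66 of the 78 members and left out a 2-fold change for 76, all but Mrps18c and Mrpl34. Standard errors of the log2 fold change ran from 0.06 to 0.29, with a median of 0.11. In bulk RNA, fewer cells of a type and less RNA per cell cannot be told apart.

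The point estimates leaned to lower values in IL-4+CGRP. The log2 fold change was below 0 in 66 of 78 members (84.6%), against 50.8% of all tested genes, and its median was -0.09, against -0.004 over all tested genes. It ran from -0.41 for Mrpl34 to 0.19 for Mrpl52. The lean depended on single libraries: 54 members were below 0 with a median of -0.05 without IL-4+CGRP replicate 1, 49 with -0.04 without IL-4+CGRP replicate 3, and 51 with -0.04 without IL-4 replicate 1. It was larger without IL-4+CGRP replicate 2 (72 below 0, median -0.21) and without IL-4 replicate 3 (69 below 0, median -0.14). The medians were close across the parts of the ribosome, at -0.09 for the 51 large subunit genes and -0.08 for the 26 small subunit genes, and -0.11 for bacterial homologues and -0.07 for mitochondria-specific proteins. Groups of libraries that did not overlap were found for 0 members in the higher direction and 1 in the lower, Mrpl4, against 11.1% and 9.92% of all tested genes, 21% in all.

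Summed over the 78 genes, the level was 1390.4, 1683 and 1352 CPM (counts scaled to library size with TMM factors) in IL-4+CGRP replicates 1 to 3, and 1684, 1549 and 1492 CPM in IL-4 replicates 1 to 3. IL-4+CGRP averaged 1475 ± 181 CPM and IL-4 1575 ± 98.4 CPM (SD, n = 3 in each group). The groups overlapped, because IL-4+CGRP replicate 2 lay with IL-4 replicate 1 at the top while IL-4+CGRP replicates 1 and 3 lay below every other library. Per length the sums were 2571 ± 253 TPM in IL-4+CGRP and 2667 ± 115 TPM in IL-4 (SD, n = 3 in each group). On both scales the difference between groups was smaller than the SD within IL-4+CGRP.

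**Figure D1:**
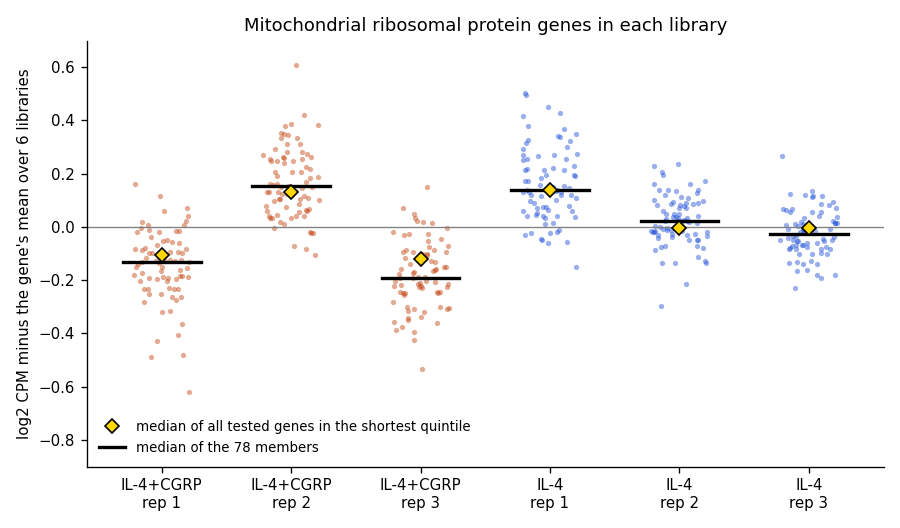
Each point is 1 of the 78 genes in 1 library, as log2 CPM minus the gene's mean over the 6 libraries, with IL-4+CGRP in orange and IL-4 in blue, a black bar for the median of the 78 genes and a yellow diamond for the median of all tested genes in the shortest quintile. IL-4+CGRP replicate 2 and IL-4 replicate 1 sit high (medians 0.15 and 0.14), IL-4+CGRP replicates 1 and 3 sit low (-0.13 and -0.19), and the diamonds follow the bars.

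Most members placed the IL-4+CGRP libraries alike. Replicate 2 was the highest of the IL-4+CGRP libraries for 71 of 78 genes (91.0%), and IL-4+CGRP replicate 3 was the lowest of all 6 libraries for 47, with replicate 1 lowest for 20. The highest of all 6 was IL-4+CGRP replicate 2 for 34 genes, IL-4 replicate 1 for 24 and IL-4 replicate 2 for 13. The median deviation of members from their own mean was -0.13, 0.15 and -0.19 (log2) in IL-4+CGRP replicates 1 to 3, and 0.14, 0.02 and -0.03 in IL-4 replicates 1 to 3. All tested genes in the shortest quintile by length were also high in IL-4+CGRP replicate 2 and IL-4 replicate 1 and low in IL-4+CGRP replicates 1 and 3, with medians of -0.10, 0.13 and -0.12 in IL-4+CGRP replicates 1 to 3, and 0.14, -0.003 and -0.003 in IL-4 replicates 1 to 3. Cytosolic ribosomal protein genes spread further, with -0.32, 0.24 and -0.34 in IL-4+CGRP, and 0.39, 0.02 and 0.02 in IL-4. Nuclear genes for subunits of oxidative phosphorylation had -0.29, 0.25 and -0.31 in IL-4+CGRP, and 0.36, 0.01 and 0.00 in IL-4. The pattern between libraries was therefore shared, at differing sizes, by the shortest quintile and by gene families of other functions. All tested genes in the longest quintile had medians of 0.06, -0.06 and 0.07 in IL-4+CGRP replicates 1 to 3. Of the 4 members in that quintile, Mrpl17, Mrps25 and Mrps17 were high in replicate 2 and low in replicates 1 and 3, and Mrpl19 was not. What the genes with the pattern have in common was not tested.

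The length column was used to follow this further. Members are short, with a median length of 1324 bases (405 to 7300), and 47 of the 78 fell in the shortest quintile of tested genes, up to 1526 bases. In that quintile the median log2 fold change was -0.10 for members and -0.08 for all tested genes. In the longer quintiles, with 9, 7, 11 and 4 members, it was -0.05, -0.12, -0.08 and -0.07 for members and -0.02, -0.004, 0.01 and 0.04 for all tested genes. Few members stand behind each of these 4 values. When the length trend of each library was removed before the fit, the members' median was -0.04, with 53 of 78 below 0 and again 0 called, against 3.60% of all tested genes called higher and 2.80% lower.

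**Figure D2:**
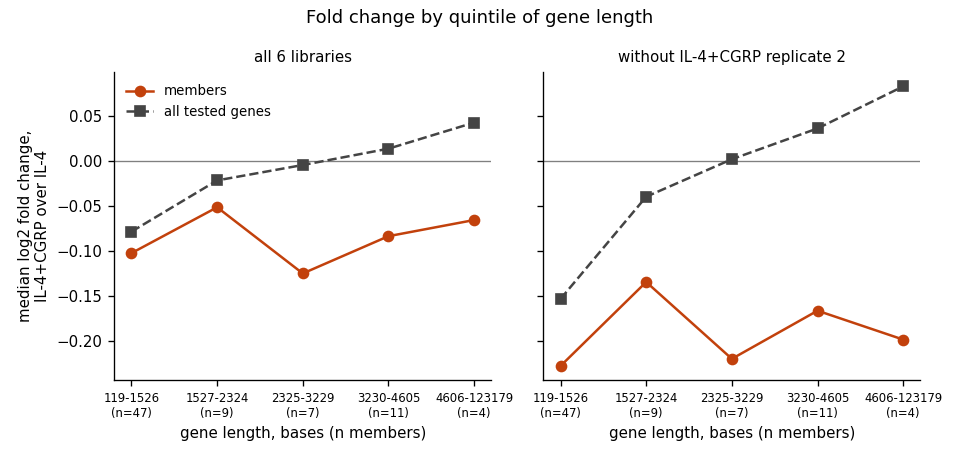
The median log2 fold change of IL-4+CGRP over IL-4 is plotted for members (orange) and all tested genes (grey) in quintiles of gene length in bases, in the fit of all 6 libraries (left) and without IL-4+CGRP replicate 2 (right). The line of all genes climbs with length (-0.08 in the shortest quintile and 0.04 in the longest, on the left), while that of members stays below 0 in every quintile.

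The members with the smallest p were all lower in their IL-4+CGRP mean, and in each of them replicate 2 was the highest IL-4+CGRP library. Mrpl44, a large subunit protein with a fold like that of RNase III, had 19.2, 22.7 and 18.5 CPM in IL-4+CGRP replicates 1 to 3, and 24.4, 25.9 and 22.02 CPM in IL-4 replicates 1 to 3. Only IL-4+CGRP replicate 2 reached the IL-4 range, and the log2 fold change was -0.26 ± 0.10 (SE; edgeR adjusted p = 0.212). Mrps17, homologue of a bacterial protein that binds small subunit RNA early in assembly, had 25.05, 28.7 and 23.6 CPM in IL-4+CGRP, and 30.3, 28.3 and 30.3 CPM in IL-4. Again only replicate 2 overlapped with IL-4, at a log2 fold change of -0.20 ± 0.08 (SE; edgeR adjusted p = 0.266). Mrpl1, homologue of the bacterial protein of the stalk beside the exit site, had 18.7, 20.0 and 17.03 CPM in IL-4+CGRP, and 25.9, 21.6 and 19.4 CPM in IL-4. Mrpl40, specific to the mitochondrial large subunit, had 14.9, 18.2 and 13.7 CPM in IL-4+CGRP, and 18.8, 19.6 and 17.5 CPM in IL-4. In Mrpl1 and Mrpl40 too the groups met only through IL-4+CGRP replicate 2 (edgeR adjusted p = 0.274 and 0.288). Mrps36 had 10.1, 12.2 and 8.87 CPM in IL-4+CGRP, and 15.8, 11.8 and 11.7 CPM in IL-4, a log2 fold change of -0.34 ± 0.15 (SE; edgeR adjusted p = 0.307). These 5 were the members with an unadjusted p under 0.05.

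Mrpl4, homologue of a bacterial protein that lines the exit tunnel, was the 1 member whose groups did not overlap. It had 30.0, 32.8 and 32.3 CPM in IL-4+CGRP, and 34.3, 33.7 and 34.5 CPM in IL-4. The log2 fold change was only -0.11 ± 0.07 (SE; edgeR adjusted p = 0.478). Mrpl51 and Mrps11 had log2 fold changes of -0.28 and -0.25 (edgeR adjusted p = 0.382 and 0.455). Mrpl11 and Mrpl18 had -0.21 and -0.13 (edgeR adjusted p = 0.461 and 0.482).

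The lowest fold changes had wide errors. Mrpl34, a small homologue of a bacterial large subunit protein, had 6.81, 12.8 and 8.42 CPM in IL-4+CGRP, and 14.9, 9.71 and 12.7 CPM in IL-4, a log2 fold change of -0.41 ± 0.27 (SE; edgeR adjusted p = 0.542). At the other end Mrpl52, specific to the mitochondrial large subunit, had 7.22, 12.7 and 7.34 CPM in IL-4+CGRP, and 9.77, 6.76 and 7.42 CPM in IL-4, a log2 fold change of 0.19 ± 0.26 (SE; edgeR adjusted p = 0.785). Without IL-4+CGRP replicate 2 the sign of Mrpl52 varied between fits. The log2 fold change was -0.13 without that library, and 0.23 with the length trend also removed. With IL-4 replicate 1 left out too it was 0.04, and 0.28 with the length trend also removed. Mrps2, homologue of a bacterial small subunit protein, had 32.5, 27.9 and 33.3 CPM in IL-4+CGRP, and 27.0, 30.4 and 29.2 CPM in IL-4. Unlike in most members, replicate 2 was its lowest IL-4+CGRP library, with a log2 fold change of 0.11 ± 0.08 (SE; edgeR adjusted p = 0.568). Mrps6 had 0.10 ± 0.12 (SE; edgeR adjusted p = 0.739).

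Proteins at the functional centres of the ribosome gave values on both sides of 0. The stalk that recruits translation factors is built on Mrpl11, Mrpl10 and Mrpl12. Mrpl10 had 34.8, 32.6 and 34.3 CPM in IL-4+CGRP, and 31.9, 33.7 and 31.8 CPM in IL-4, a log2 fold change of 0.06 ± 0.07 (SE; edgeR adjusted p = 0.686). Mrpl12 had 24.9, 31.0 and 23.3 CPM in IL-4+CGRP, and 34.7, 25.3 and 28.4 CPM in IL-4, a log2 fold change of -0.16 ± 0.14 (SE; edgeR adjusted p = 0.650). The stalk genes thus spread from -0.21 for Mrpl11 to 0.06 for Mrpl10, and none passed the test. Mrps12, homologue of the bacterial decoding centre protein, had 8.71, 14.6 and 9.06 CPM in IL-4+CGRP, and 14.3, 11.7 and 12.5 CPM in IL-4 (edgeR adjusted p = 0.614). Its IL-4+CGRP replicate 2 was the highest of all libraries, while replicates 1 and 3 were the lowest. Mrpl45, which anchors the ribosome to the inner membrane, was nearly level, at 31.5, 32.4 and 30.4 CPM in IL-4+CGRP, and 30.0, 30.6 and 31.1 CPM in IL-4 (log2 fold change 0.04 ± 0.07 (SE), edgeR adjusted p = 0.809). Mrpl58, a peptidyl-tRNA hydrolase built into the large subunit that rescues stalled ribosomes, had 0.05 ± 0.14 (SE; edgeR adjusted p = 0.894). Mrps30 had -0.10 ± 0.10 (SE; edgeR adjusted p = 0.687).

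The 3 Mrps18 genes descend from 1 bacterial protein, and their products occupy different sites, Mrps18a in the large subunit and Mrps18b and Mrps18c in the small one. Per length all 3 were above the members' median, at 74.5 TPM for Mrps18a, 50.8 TPM for Mrps18b and 64.7 TPM for Mrps18c. Mrps18a had 27.1, 31.3 and 27.0 CPM in IL-4+CGRP, and 28.6, 31.9 and 28.6 CPM in IL-4 (log2 fold change -0.06 ± 0.08 (SE), edgeR adjusted p = 0.768). Mrps18b had 21.3, 27.1 and 21.6 CPM in IL-4+CGRP, and 26.4, 24.5 and 24.5 CPM in IL-4 (log2 fold change -0.11 ± 0.10 (SE), edgeR adjusted p = 0.653). Mrps18c had 12.7, 22.4 and 12.3 CPM in IL-4+CGRP, and 25.3, 19.0 and 18.8 CPM in IL-4, a log2 fold change of -0.41 ± 0.29 (SE; edgeR adjusted p = 0.573). In Mrps18c the gap between replicate 2 and the other IL-4+CGRP libraries was wider than that between the group means. Whether the 3 genes differ from each other in their response was not tested.

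Without IL-4+CGRP replicate 2, which leaves 2 libraries in that group, the picture changed. That library was the highest of IL-4+CGRP for 71 of 78 members, so leaving it out lowers their IL-4+CGRP mean by construction. The calls below depend on that choice and are not separate support for a lower level. Of the 78 members, 15 (19.2%) were called lower and 0 higher, against 7.04% and 6.78% of 13492 tested genes, and 72 were below 0 with a median of -0.21. The 15 comprised 8 large subunit genes, 6 small subunit genes and Mrps36. Of them, 11 lay in the shortest quintile by length, where 16% of all tested genes were called lower. Mrps18c had 12.7 and 12.3 CPM in IL-4+CGRP replicates 1 and 3, against 25.3, 19.0 and 18.8 CPM in IL-4. Its log2 fold change was -0.75 ± 0.13 (SE; edgeR adjusted p = 0.00179). Mrpl34 had -0.71 ± 0.18 (SE; edgeR adjusted p = 0.0237), Mrps12 -0.53 ± 0.12 (SE; adjusted p = 0.00584) and Mrpl55 -0.51 ± 0.12 (SE; adjusted p = 0.00659). The other calls were in Mrpl51, Mrps14, Mrps17, Mrpl30, Mrpl42, Mrpl44, Mrpl40, Mrps28, Mrps21, Mrpl33 and Mrps36, at log2 fold changes from -0.46 for Mrps36 to -0.28 for Mrps17. Leaving out any other single library gave 0 calls among members. With all 6 libraries and no count filter, 1 of the 15, Mrpl51, was also called lower (edgeR adjusted p = 0.0372). Mrpl30, Mrpl33, Mrpl55, Mrps14 and Mrps28 are named because of these calls, after their values were seen.

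**Figure D3:**
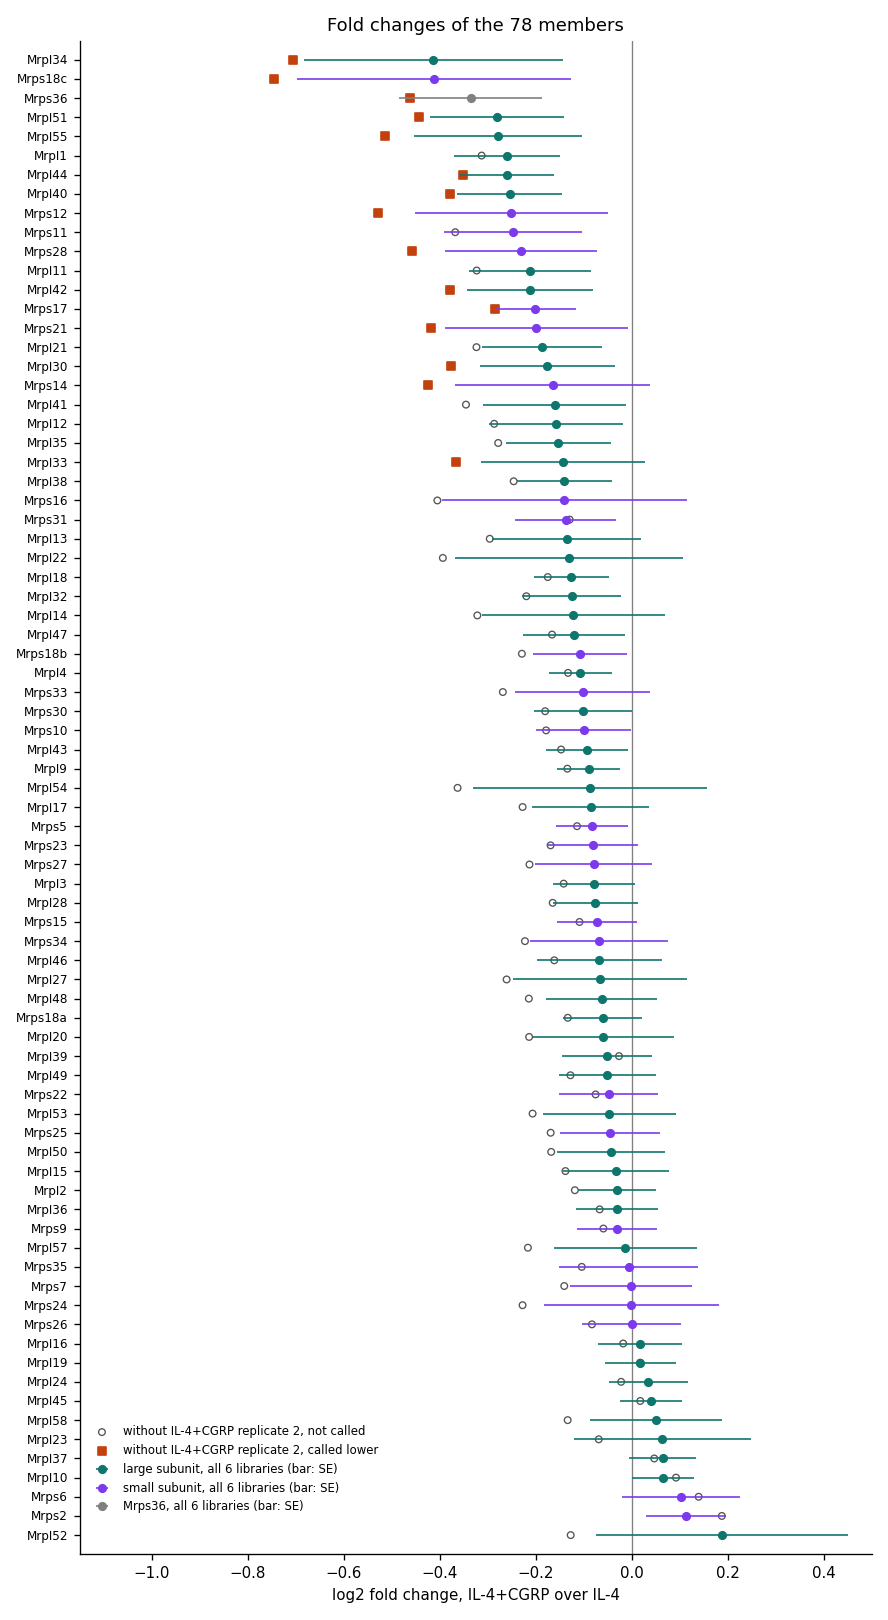
Log2 fold changes of IL-4+CGRP over IL-4 for the 78 members, in order of the value from all 6 libraries (filled circles with SE, coloured by subunit), beside the value without IL-4+CGRP replicate 2 (open circles, or orange squares where called lower). Without that library most values shift to the left and 15 are called, while with all 6 libraries none is.

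Removing the length trend as well left 11 members called lower (14.1%) and 1 higher, Mrps2 (edgeR adjusted p = 0.0343), against 6.57% and 6.94% of tested genes. Of these 11, 6 were among the 15, and Mrpl1, Mrpl11, Mrpl17, Mrpl35 and Mrps25 were called here but not there. The trend was removed by the deposited length. Mrpl1, Mrpl11, Mrpl17, Mrpl33, Mrps14 and Mrps17 have an annotated coding transcript of under 50% of that length. If the shorter transcript is the one expressed, their values with the trend removed may be too low, which was not tested. With IL-4 replicate 1 left out too, the library that was high among the controls, 13 members (16.7%) were called lower, all among the 15, and 0 higher, against 8.88% and 7.97% of tested genes. With both libraries out and the length trend removed, 4 (5.13%) were called lower and 0 higher, against 6.57% and 7.05% of tested genes. These 4, Mrps18c, Mrpl51, Mrps17 and Mrps14, were called lower in all 4 of these fits, and their promoters are among those printed above. As a share of members they lay under the 6.57% of all tested genes called lower in that last fit. The share of all tested genes called lower in all 4 fits was not counted. All 4 fits leave out IL-4+CGRP replicate 2, so they are not independent of each other. The fits that go beyond leaving out 1 library, and Mrpl17, Mrpl35 and Mrps25, were chosen after seeing the data.

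In Mrps17, IL-4+CGRP replicate 2 lay just above the lowest IL-4 library. The log2 fold change of Mrps17 was -0.35 ± 0.08 (SE) without replicate 2 and with the length trend removed (edgeR adjusted p = 0.00194). Mrpl51, specific to the mitochondrial large subunit, had 19.0, 27.2 and 20.9 CPM in IL-4+CGRP, and 30.4, 26.9 and 24.2 CPM in IL-4. Replicate 2 fell inside the IL-4 range and replicates 1 and 3 below it, and in the same fit the log2 fold change was -0.47 ± 0.09 (SE; edgeR adjusted p = 0.00121). Mrps14, homologue of a bacterial small subunit protein, had 14.5, 22.6 and 13.7 CPM in IL-4+CGRP, and 21.1, 16.7 and 19.1 CPM in IL-4. Here replicate 2 was above every IL-4 library and replicates 1 and 3 below every one, so the group means hardly differed with all libraries in (log2 fold change -0.16 ± 0.20 (SE), edgeR adjusted p = 0.754). Mrps18c had -0.48 ± 0.10 (SE; edgeR adjusted p = 9.3e-04) in the same fit. The deposited lengths of Mrps17, Mrps14 and Mrpl51 are 5061, 2999 and 3427 bases, all above the shortest quintile, although shorter coding transcripts are annotated for Mrps17 and Mrps14.

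**Figure D4:**
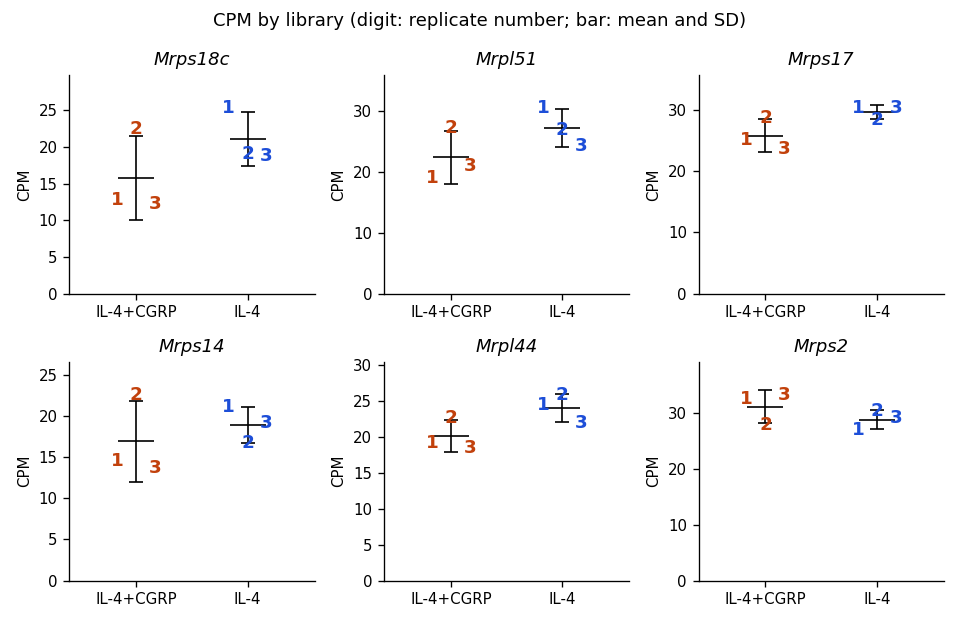
CPM of 6 members in each library, with digits for the replicate number, IL-4+CGRP in orange left of IL-4 in blue, and the mean and SD in black (n = 3 in each group). Replicate 2 stands above replicates 1 and 3 of IL-4+CGRP in every panel but that of Mrps2, where it is the lowest at 27.9 CPM.

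Counting itself limits a few members. Mrpl23 is identical to the pseudogene Mrpl23-ps1 over 540 bases, and the pseudogene held 82.8% of their summed counts. Mrpl23 alone had 2.76, 3.40 and 2.48 CPM in IL-4+CGRP, and 2.78, 2.77 and 2.71 CPM in IL-4, the lowest CPM among members. The 2 summed had 14.9, 21.7 and 12.8 CPM in IL-4+CGRP, and 18.5, 16.5 and 14.1 CPM in IL-4, with a log2 fold change of 0.01 ± 0.21 (SE; edgeR adjusted p = 0.986). In all, 29 members have a match of at least 95% identity over at least 200 bases in a transcript of another gene, such as an overlapping antisense gene (Gcfc2 for Mrpl19, Nr2c2 for Mrps25) or a processed pseudogene (Gm14017 for Mrpl51). Their counts are uncertain to that extent.

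Around the ribosome, no nuclear gene of the mitochondrial translation lists passed the test, against 3.85% of all tested genes. The 5 subunits with other names had 0 called and a median log2 fold change of -0.14, with -0.14 ± 0.08 (SE; edgeR adjusted p = 0.457) for Aurkaip1 of the small subunit and -0.17 ± 0.11 (SE; adjusted p = 0.518) for Gadd45gip1 of the large one. The 27 assembly factors had 0 called and a median of -0.03. Rpusd4, a pseudouridine synthase of the large ribosomal RNA, had 23.4 ± 2.42 CPM in IL-4+CGRP and 26.7 ± 1.00 CPM in IL-4 (SD, n = 3 in each group; edgeR adjusted p = 0.310). Mtg1, a GTPase of large subunit assembly, had 9.46 ± 1.34 CPM in IL-4+CGRP and 11.2 ± 0.750 CPM in IL-4 (SD, n = 3 in each group; edgeR adjusted p = 0.337). Without IL-4+CGRP replicate 2 both were called lower (edgeR adjusted p = 0.0261 and 0.0465), as were 7.04% of all tested genes.

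The 15 translation factors had 0 called and a median of -0.07. Tufm, the elongation factor that delivers aminoacyl-tRNA, had 49.0, 45.7 and 44.0 CPM in IL-4+CGRP, and 54.3, 53.0 and 50.6 CPM in IL-4. Its groups did not overlap, with a log2 fold change of -0.19 ± 0.06 (SE; edgeR adjusted p = 0.154), and Guf1 had -0.12 ± 0.09 (SE; adjusted p = 0.599). The 20 enzymes that charge mitochondrial tRNA or amidate it had 0 called and a median of -0.04. Lars2, the mitochondrial leucyl-tRNA synthetase, stood apart in size, with 206, 348 and 966 CPM in IL-4+CGRP, and 75.1, 99.8 and 72.6 CPM in IL-4. Every IL-4+CGRP library was above every IL-4 library, yet the IL-4+CGRP libraries differed among themselves so widely that the log2 fold change of 2.62 ± 0.71 (SE) did not pass (edgeR adjusted p = 0.201). Vars2 had 0.17 ± 0.09 (SE; edgeR adjusted p = 0.390).

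Of 25 genes for transcription of mitochondrial DNA and RNA handling, 24 were tested, 0 were called and the median was -0.04. Grsf1, an RNA-binding protein of mitochondrial RNA granules, had -0.12 ± 0.06 (SE; edgeR adjusted p = 0.349), and Hsd17b10, a subunit of mitochondrial RNase P, -0.33 ± 0.17 (SE; adjusted p = 0.401). Without IL-4+CGRP replicate 2, 3 of this list were called lower, against 7.04% of all tested genes. They were Hsd17b10 (edgeR adjusted p = 0.00179), Slirp (0.00887) and Ssbp1 (0.0102), the last 2 named after their values were seen. Of 11 regulators, 10 were tested, 0 were called and the median was 0.06, with Nrf1 at 0.13 ± 0.07 (SE; edgeR adjusted p = 0.450) and Gabpb1 of the ETS factor GABP at 0.10 ± 0.08 (SE; adjusted p = 0.622). Among the 13 messenger RNAs that the mitoribosome translates, 12 were tested, 1 was called higher, 1 lower, and the median was -0.25. That median includes genes with very uneven counts. mt-Atp6 had 7.43, 16.9 and 7.61 CPM in IL-4+CGRP, and 83.3, 16.7 and 7.34 CPM in IL-4. mt-Nd3 had 0, 0 and 1.13 CPM in IL-4+CGRP, and 5.16, 0.939 and 2.67 CPM in IL-4. mt-Co3, not tested, reached 29.0 and 25.6 CPM in replicate 3 of the 2 groups and was near 0 elsewhere. mt-Co1 fell to 2222, 2238 and 2200.1 CPM in IL-4+CGRP, against 2667, 2408 and 2446 CPM in IL-4, a log2 fold change of -0.18 ± 0.04 (SE; edgeR adjusted p = 0.047). That call ended in 15 of 19 other settings, among them DESeq2 (adjusted p = 0.122) and any single library left out other than IL-4+CGRP replicate 2 (0.09 to 0.244). mt-Co2 was listed at 7.43, 8.54 and 8.15 CPM in IL-4+CGRP and at 0 in every IL-4 library, while mt-Co1 was at 2200.1 CPM or more in each library, so the level of mt-Co2 is uncertain and no fold is given. Without IL-4+CGRP replicate 2, mt-Cytb and mt-Atp8 were called lower beside mt-Co1 (edgeR adjusted p = 0.00384 and 0.0159), both named after their values were seen. The ribosomal RNAs mt-Rnr1 and mt-Rnr2 had log2 fold changes of 0.10 ± 0.20 (SE; edgeR adjusted p = 0.851) and 0.68 ± 0.37 (SE; adjusted p = 0.494). mt-Rnr2 had 94.3, 114 and 217 CPM in IL-4+CGRP replicates 1 to 3, and 97.4, 78.5 and 90.4 CPM in IL-4. Like Lars2 it rose from IL-4+CGRP replicate 1 to 3, and a link between them was not tested.

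**Figure D5:**
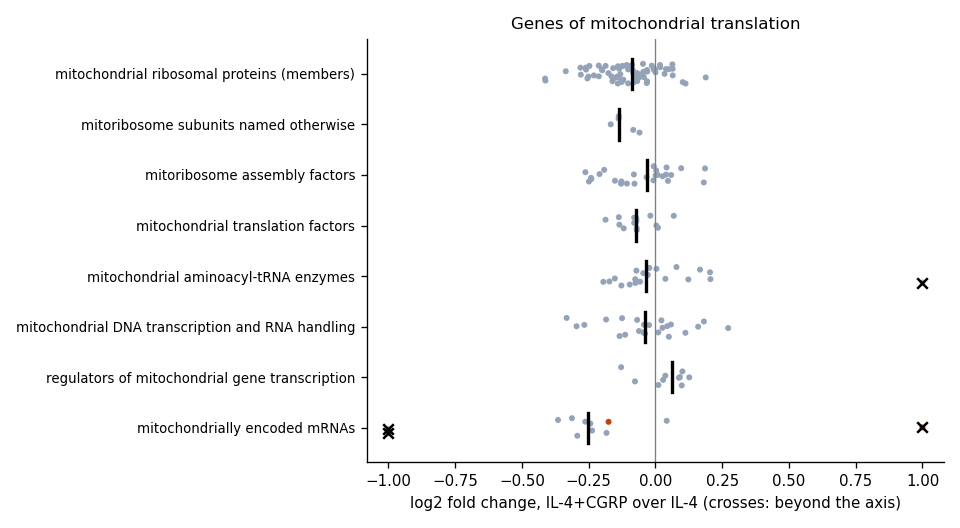
Log2 fold changes of IL-4+CGRP over IL-4 in the fit of all 6 libraries, with 1 point per gene, a black bar for each list's median, orange for called genes and crosses at the edge for values beyond the axis. The medians of the lists plotted lie between -0.25 and 0.06, and the only called genes are mt-Co1 and mt-Co2, the second under a cross on the right.

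The gene families beside them had lower medians than members, at the same sign. Cytosolic ribosomal protein genes had a median of -0.25 over 81 tested genes with 0 called higher and 1 lower, and nuclear oxidative phosphorylation genes -0.20 over 82 with 0 called. Of all tested genes, 2.32% were called higher and 1.54% lower. Without IL-4+CGRP replicate 2, 26 and 35 of these were called lower and their medians were -0.47 and -0.42, against -0.21 for members. In that fit 7.04% of all tested genes were called lower, and 16% of those in the shortest quintile by length. These families are shorter still, with median lengths of 799 and 727.5 bases. With all 6 libraries and the length trend removed, their medians were -0.15 and -0.09, against -0.04 for members. In that fit 10 and 4 of them were called lower and 0 higher, against 2.80% and 3.60% of all tested genes. The differences between families were not tested.

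The libraries carried the markers of macrophages, whose 10 genes were all tested and summed to 14678 to 15052 CPM in IL-4+CGRP and 14425 to 14664 CPM in IL-4. Of them 2 were called higher, Cd14 and Itgam, against 2.32% of all tested genes, and 4 were below 0. Adgre1 and Cx3cr1 were lower in IL-4+CGRP without overlap of the groups. With the length trend removed these 2 were called lower (edgeR adjusted p = 0.0328 and 0.0304) and 3 of the 10 higher, against 2.80% and 3.60% of all tested genes. Neutrophil, mast cell and related, T and NK cell, B cell, stromal and dendritic cell lists summed to at most 99.1 CPM in IL-4+CGRP and 93.9 CPM in IL-4, with Ly6g and Mcpt4 at 0, and erythroid genes to at most 0.586 and 0.455 CPM. Among dendritic cell markers Ccr7 was called higher and Ccr9 and Siglech lower, and the 5 tested mast cell and related genes were all below 0, with 0 called and sums of 5.90 to 7.43 CPM in IL-4+CGRP and 8.54 to 10.6 CPM in IL-4. The 15 cell cycle genes summed to 357 to 368 CPM in IL-4+CGRP and 389 to 404 CPM in IL-4. Of them 10 were below 0 and 1 was called lower, Pcna, against 1.54% of all tested genes. Much of the gap between the sums was in Pcna, with means of 125 CPM in IL-4+CGRP and 154 CPM in IL-4. Mki67 went the other way, with means of 45.1 and 39.5 CPM (edgeR adjusted p = 0.218). The part of these marker and cell cycle genes in the lean of the members was not tested. Totals ran from 20088895 to 24060444 counts per library.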

How the data were processed

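RNA was sequenced from 3 IL-4+CGRP and 3 IL-4 libraries of mouse bone marrow-derived macrophages. Per the labels' protocols, libraries were made with a stranded mRNA kit from total RNA whose quality number reached 6.5 or more. The tools were fastp, HISAT2 and StringTie on build GRCm39, per the submitters' processing notes; their versions, the annotation and strand use were not stated in the sources used here. No CGRP concentration is given, since the wording of the labels is ambiguous. The table deposited by the authors, whose counting step is not stated, holds estimated counts per gene (also called expected counts), not scaled to depth. Of these, 23.3% to 26.6% above 0 in a library were not whole (tolerance 1e-06). The table also has the authors' group means, which were not used, and a gene length.

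Counts were rounded, filtered with filterByExpr by group (13260 genes kept, with 99.91% of counts), scaled by TMM (factors 0.985 to 1.016) and compared in R 4.3.3 with edgeR 4.0.16 (robust quasi-likelihood fit without covariates, two-sided). The p-values were adjusted by Benjamini-Hochberg across every tested gene, and the threshold was 0.05. CPM are counts over TMM-scaled totals, and TPM were computed here from counts and the length column. SEs are those of the log2 fold change. The scripts were tested on simulated data. Alternatives were DESeq2 1.42.0, limma-voom (limma 3.58.1), other scalings and filters, a fit that was not robust, the replicate block, removal of each library's length trend, removal of mitochondrial and ribosomal RNA genes, and leaving out libraries. Copies and transcript lengths came from GENCODE M21 transcripts with BLAST+ 2.17.0, and promoters from RefSeq (GRCm38.p6), a build other than that of the counts, so no coordinates were joined between them.

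Members and lists were chosen with earlier results of these data known. Members named are the 10 with the smallest p, the 3 highest and 3 lowest fold changes among those averaging 1 or more in log2 CPM, the 3 highest and 3 lowest levels per length, 12 of interest and, for each list, genes past the threshold or the 2 with the smallest p.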

Additional observations from a re-analysis of the deposited data

How the results depend on the processing

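Over all tested genes, 307 were called higher and 204 lower with all libraries. With no count filter these counts were 584 and 434, with the length trend removed 478 and 371, and over single libraries left out 140 to 915 and 80 to 950. Without IL-4+CGRP replicate 2 and IL-4 replicate 1 they were 1066 and 1187, without IL-4+CGRP replicate 2 and with the length trend removed 936 and 886, and with both libraries out and the trend removed 942 and 879. Among members, 0 were called higher in all settings except 1 without IL-4+CGRP replicate 2 and with the length trend removed. The 0 called lower became 1 with no count filter (Mrpl51, edgeR adjusted p = 0.0372), 0 to 15 over single libraries left out, 13 without both libraries, 11 without IL-4+CGRP replicate 2 and with the trend removed, and 4 without both and with the trend removed. The cause of these changes was not tested. The 2 calls in the mitochondrial translation lists became 1 with upper quartile factors, with library totals alone and with a minimum mean count of 50, 8 with no count filter, 4 with DESeq2 and with the length trend removed, 0 without mitochondrial and ribosomal RNA genes, which takes both genes out, and 1 to 9 over single libraries left out. They became 14 without both libraries, 7 without IL-4+CGRP replicate 2 and with the trend removed, and 8 without both and with the trend removed.

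Deviations of same-numbered libraries of the groups had correlations of -0.19, -0.18 and 0.13. With 3 libraries in each group these values cannot show whether same-numbered libraries were paired, and the labels do not say. With the replicate block, 176 genes were called higher and 86 lower, 0 members were called with a median of -0.09, and 1 gene of the translation lists was called. The members' median and summed level moved by less than the spread between replicates in every setting run, and no called value changed sign. That is a wide margin, since the spread for the median (SD 0.14, log2) exceeds the size of the median itself. The median went from -0.09 to -0.21 without IL-4+CGRP replicate 2. For 45 named genes over 20 other settings, 814 of 896 values kept their side of the threshold and their sign, 43 became called, 15 lost a call, all of them of mt-Co1, and 24 uncalled values changed sign. At a median SE of 0.11 (log2), changes of the size of the members' median were not detectable gene by gene.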
